A study of Bos taurus with 16 samples.

Results

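The genes described here are 49 listed cell cycle and DNA replication genes, taken wherever a probe that is not a control carries one of these symbols as its gene name. Of the 49 genes, 42 were found, on 94 of the 43653 probes of the array, and all 42 had at least 1 probe that was tested (87 probes in all). They fell into 16 of 19 replication and S phase genes, 22 of 26 mitotic genes, the 3 transcription factors E2F1, FOXM1 and MYBL2, and the G1 cyclin CCND1. The 7 genes without a probe of that name were CDT1, GINS2 and MCM2 among the replication genes and MKI67, TOP2A, MAD2L1 and CENPA among the mitotic genes.

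The samples are forceps biopsies of the endometrium, which lines the uterus, from 4 cows that the labels call fertile. Biopsies were taken from every cow at 4 nominal times, days 10, 30, 50 and 100 after parturition, which gives 1 array per cow and time and 16 one-colour arrays of total RNA. Sampling took place on days 9 to 10, 29 to 30, 49 to 51 and 99 to 100, while the labels used here state no genotype, breed, age or treatment. The times were compared within cows.

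A dividing cell first copies its DNA in S phase and then separates the copies in mitosis. Cyclins switch on cyclin-dependent kinases that drive these steps. E2F transcription factors raise the genes of replication, and the MYBL2 and FOXM1 factors raise the genes of mitosis, so transcripts of the latter peak shortly before division and mark dividing cells in a tissue. After calving, the endometrium sheds tissue, clears inflammatory cells and regrows its surface epithelium.

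A level is the log2 processed signal of a probe minus the log2 of the 75th percentile of its array, so an increase of 1 is a doubling of signal. Each gene is represented by its tested probe with the highest mean level, and levels of different probes were not compared. A gene is said to have risen or fallen only where limma, fitted to all 33174 tested probes with terms for time and cow, gave a Benjamini-Hochberg adjusted p under 0.05. Fold changes are given with the standard error (SE) of the fit on the log2 scale, and n is 4 cows at each time. In biopsies of whole tissue, fewer cells of a type and less RNA per cell cannot be told apart.

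Probes of 5 genes described below are shown, to give the letters behind their values and to show where probes of a gene differ, as 60-base sequences in lower case, read 5′ to 3′ from the deposited files, with positions on bovine build HGSC Btau_3.1. UBE2C, the ubiquitin-conjugating enzyme of the anaphase-promoting complex, and CDC20, an activator of that complex, followed the mitotic group. MCM6 and MCM4 are subunits of the helicase that opens DNA for copying, and CCNE1 encodes cyclin E1, which starts S phase. The UBE2C and MCM6 lines and the first CDC20 line are the probes whose values represent their genes, whereas the other lines are further probes of theirs. None of the printed probes carried a call, and those that carried the calls of CCNE1 and RRM1 are not printed. The other CDC20 lines overlap, and capitals mark the 32 bases they share.
UBE2C, chr13:75364411-75364967, plus strand: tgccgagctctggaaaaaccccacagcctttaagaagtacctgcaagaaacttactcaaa
CDC20, chr3:109574830-109574889, minus strand: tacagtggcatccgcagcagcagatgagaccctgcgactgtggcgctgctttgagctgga
CDC20, chr3:109577802-109577947, minus strand: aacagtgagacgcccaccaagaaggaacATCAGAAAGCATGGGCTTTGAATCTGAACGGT
CDC20, chr3:109577774-109577833, minus strand: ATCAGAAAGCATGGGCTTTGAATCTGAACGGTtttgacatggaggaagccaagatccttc
MCM6, chr2:64484680-64484739, plus strand: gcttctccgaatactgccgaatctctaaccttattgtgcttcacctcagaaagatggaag
MCM4, chr14:19218941-19219692, plus strand: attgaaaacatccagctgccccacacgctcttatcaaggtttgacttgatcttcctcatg
CCNE1, chr18:39563330-39563695, plus strand: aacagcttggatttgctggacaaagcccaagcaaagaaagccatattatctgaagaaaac
The UBE2C, MCM4 and CCNE1 probes and the first overlapping CDC20 probe span 557, 752, 366 and 146 bases of the genome with their 60 bases, so each is split over the genome.

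Array quality touched the members as follows. The median processed signal ran from 51.1 to 154 over the arrays, and cows 3 and 2 at day 100 had the lowest values (51.1 and 54.8). Of the 42 members, 31 were well above background on all 16 arrays, and 5 (CDC6, KIF11, CENPF, TTK and FOXM1) on 10 or fewer. CDC6, KIF11, CENPF and TTK were not well above background on any day 100 array, so their differences from day 100 are given as bounds. Of 18 epithelial markers 16 were measured, 13 of them well above background on all arrays, and of 12 stromal fibroblast markers 10 were measured, 9 of them on all arrays. The level of the epithelial list ran from -3.87 in cow 2 to 2.86 in cow 1, both at day 100, so this list differed widely between biopsies of 1 time. The level of 11 smooth muscle markers ran the other way on these arrays, from 2.08 in cow 2 to -3.55 in cow 1.

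The mitotic genes were highest on single biopsies and lower at day 100 than at day 10. The level of the mitotic group, the mean over its 22 genes after each gene's mean over the 16 arrays was subtracted, was -0.05, 0.24, 1.10 and 0.46 in cows 1 to 4 at day 10 and 0.44, 1.15, 2.64 and -0.93 at day 30. At day 50 it was -1.03, -1.36, -0.51 and 2.04, and at day 100 it was -0.62, -1.71, -0.85 and -1.03. Every day 100 value lay below every day 10 value, while days 30 and 50 each held values above and below all of day 10. The median difference over the 22 genes from day 50 to day 100 was 0.52, 0.05, -0.15 and -3.27 in cows 1 to 4, so the lower mean of day 100 there rested on cow 4. The 2 highest arrays were cow 3 at day 30 and cow 4 at day 50. Cow 4 ran opposite to the other cows at both middle times: 19 of 22 mitotic genes were lower than at day 10 in its day 30 biopsy, and 22 of 22 were higher in its day 50 biopsy. In cows 1 to 3 the counts were 16, 20 and 22 of 22 higher at day 30 and 19, 20 and 21 of 22 lower at day 50.

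The replication group moved over a narrower span. Its level in cows 1 to 4 was -0.21, -0.02, 0.24 and -0.24 at day 10 and -0.04, 0.40, 1.15 and 0.23 at day 30. It was -0.33, -0.43, -0.04 and 0.60 at day 50 and -0.34, -0.60, 0.01 and -0.37 at day 100. The same 2 biopsies were again the highest, and all 4 cows were higher at day 30 than at day 10. Whether the mitotic and replication groups differ was not tested, since the genes of a group share arrays and are not replicates.

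**Figure D1:**
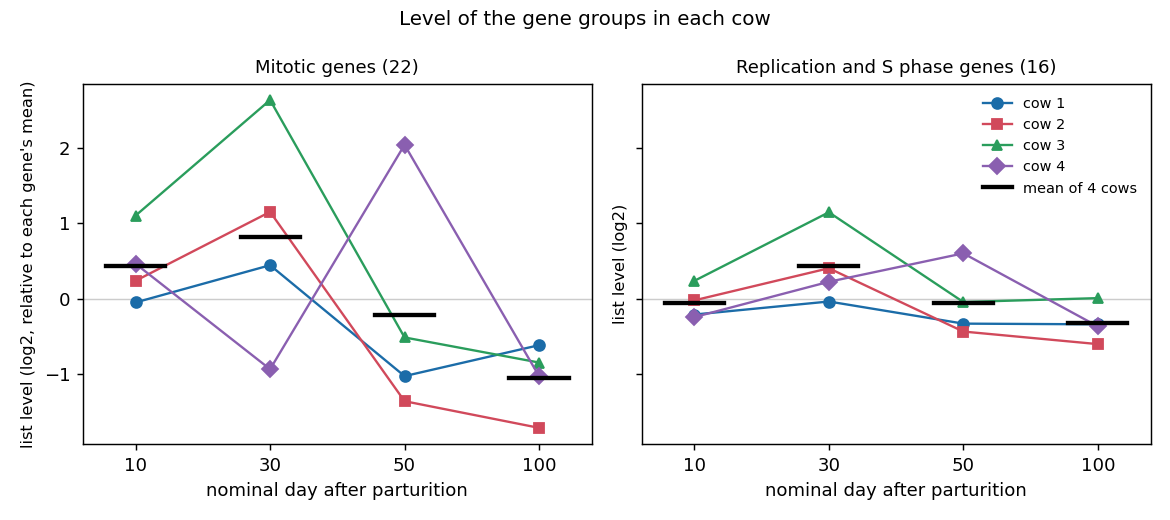
Group level (y axis, log2, mean over the genes after subtracting each gene's mean over 16 arrays) against nominal day after parturition (x axis) for the 22 mitotic genes (left) and the 16 replication and S phase genes (right). Coloured lines join the 4 biopsies of a cow and black bars are means of 4 cows; the mitotic level peaked at 2.64 in cow 3 at day 30 and at 2.04 in cow 4 at day 50, and the day 100 values lay between -1.71 and -0.62.

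At day 100 against day 10, 2 of 42 members passed the test: CCNE1 fell and RRM1 rose. Over all tested probes 3.15% fell and 1.45% rose in this comparison, so 1 of 42 in each direction lay near the background. No mitotic gene passed. The smallest adjusted p among the mitotic genes was 0.0642 (limma), for CDK1, and 7 of 22 had an unadjusted p under 0.05 with a lower level at day 100, where 14.9% of all tested probes did. In 16 of 22 mitotic genes the level was lower in 4 of 4 cows, against 16% of all tested probes. In 15 of 22 the day 10 and day 100 levels did not overlap, with day 100 lower, against 6.48% of all tested probes. The 15 include the dim genes KIF11, CENPF and TTK. In cow 1 at day 10, KIF11 and CENPF were at -6.77 and -6.31. These lay below the lowest level well above background in cow 2 at day 100 (-6.11), so at their bounds these 2 genes overlap. RRM1 alone of the 42 did not overlap with day 100 higher (4.51% of all tested probes), and it alone was higher at an unadjusted p under 0.05 (10.9%). Of the 16 replication genes, 4 were lower in 4 of 4 cows and 2 had lower levels without overlap. The median log2 difference was -1.49 over the mitotic genes, -0.08 over the replication genes and -0.07 over all tested probes. With the dim genes KIF11, CENPF and TTK at their bounds the mitotic median was -1.36. With normexp background correction, which here adds an offset of 50 to the signal, in place of the processed signal it was -0.28. The cause was not tested.

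**Figure D2:**
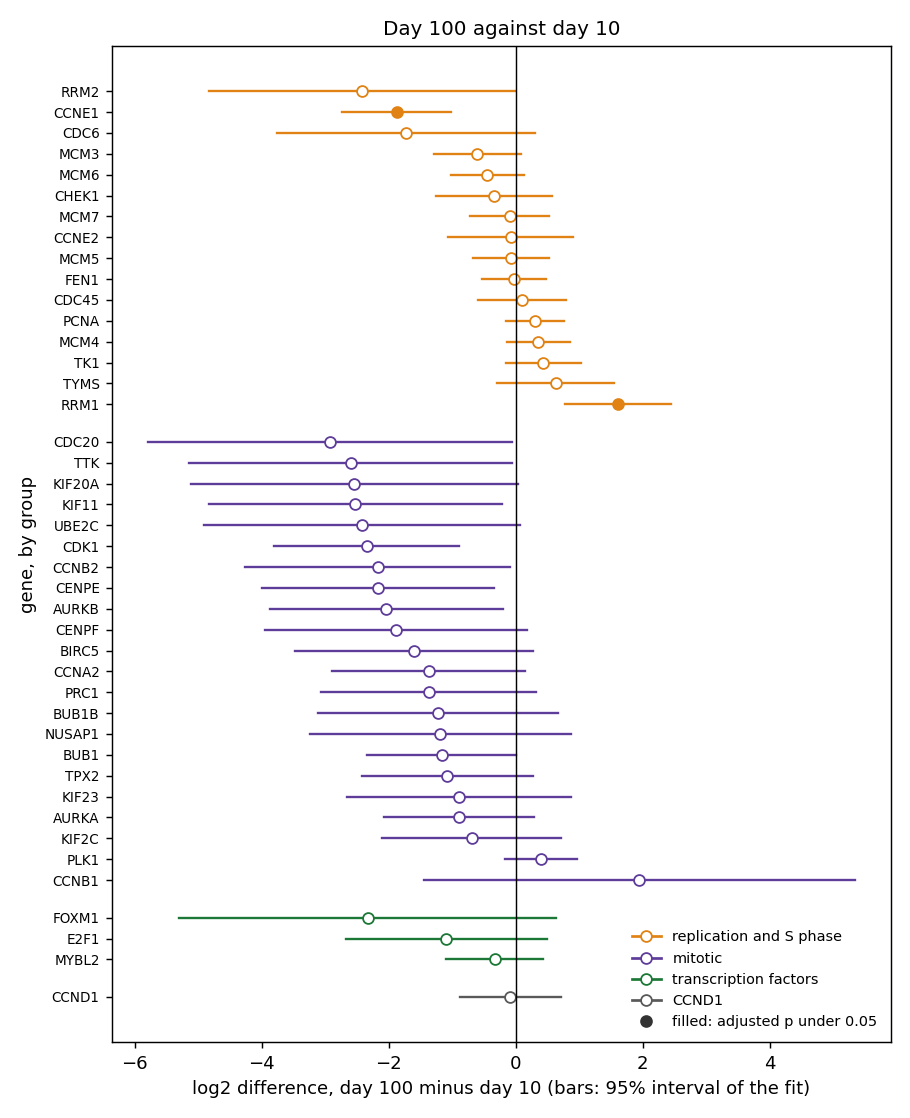
Fitted log2 difference, day 100 minus day 10 (x axis), for the 42 genes (y axis, by group), with bars for the 95% interval of the fit and filled points where the limma adjusted p was under 0.05. CCNE1 (-1.88) and RRM1 (1.62) are the filled points, and 20 of 22 mitotic genes lie left of 0.

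The differences from day 10 at earlier times gave no call among the members. At day 30 against day 10, 0 of 42 passed, with 0.0121% of all tested probes risen and 0.407% fallen, and the smallest adjusted p was 0.184 (limma). An unadjusted p under 0.05 was reached by 4 members, all replication genes and all higher at day 30, where 5.84% of all tested probes were higher and 8.19% lower. Of the 16 replication genes 7 were higher at day 30 in 4 of 4 cows, against 10.6% of all tested probes. At day 50 against day 10, 0 of 42 passed, where 0.594% of all tested probes rose and 1.06% fell, and 3 members were higher and 2 lower at an unadjusted p under 0.05 (8.86% and 9.72% of all tested probes). Day 50 lay above day 10 without overlap in 2 members, CCNB1 and RRM1, against 8.6% of all tested probes. The F test over the 3 differences from day 10 called no member either (1.03% of all tested probes), with a smallest adjusted p of 0.0711 for CCNE1 and 7 of 42 members at an unadjusted p under 0.05, near the 18.9% of all tested probes.

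Between the later times no probe on the array passed (0%). At day 100 against day 30, 20 of 42 members, 13 of them mitotic, had an unadjusted p under 0.05 with a lower level at day 100, where 7.29% of all tested probes did. Of the 22 mitotic genes 9 were lower in 4 of 4 cows and 5 did not overlap, against 8.44% and 1.7% of all tested probes. The 5 include KIF11 and TTK, at -7.13 and -6.44 in cow 4 at day 30. These values lay below the lowest level well above background in cow 2 at day 100 (-6.11), so at their bounds both genes overlap. The smallest adjusted p over all probes in that comparison was 0.259 (limma). The median difference there was -1.93 over the mitotic genes and -0.57 over the replication genes, against -0.05 over all tested probes. Within cows 1 to 3 the mitotic median was -1.07, -2.95 and -3.61. In cow 4 it was 0.00, with 11 of 22 genes lower and 11 higher. Without cow 3 at day 30 the mitotic median was -1.40, and with normexp correction it was -0.81. In this comparison 11 of 11 smooth muscle markers lay lower at day 100 in the fit, with a median of -1.69. Of 10 ciliated epithelium markers 9 lay higher, with a median of 1.09. Only 1 of the 11 was lower and 2 of the 10 were higher in 4 of 4 cows, against 8.44% and 6.41% of all tested probes. In cow 2 the smooth muscle level was higher at day 100 (2.08 against 1.67), and in cows 2 and 3 the ciliated level was lower. None of these markers passed, and their part in the cell cycle differences was not tested. At day 50 against day 30, 1 member was higher and 3 lower at an unadjusted p under 0.05, where 4.96% and 4.37% of all tested probes were. At day 100 against day 50 neither direction held a member, against 0.928% higher and 2.21% lower over all tested probes. The comparisons with day 10 share its 4 biopsies, and those with day 30 or day 100 share theirs.

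RRM1, the large subunit of ribonucleotide reductase, which makes the deoxynucleotides for DNA, was at 3.29, 3.11, 2.87 and 3.04 in cows 1 to 4 at day 10. It was at 3.63, 4.26, 4.46 and 3.69 at day 30, at 4.16, 4.20, 4.01 and 3.72 at day 50, and at 5.77, 3.78, 5.37 and 3.87 at day 100. All 12 later values lay above all 4 values of day 10, and cows 1 and 3 stood highest at day 100. It rose 3.07-fold from day 10 to day 100 (log2 1.62 ± 0.38 SE, adjusted p = 0.0384, limma, 4 of 4 cows). The limma call was lost without cow 1, 3 or 4 (adjusted p = 0.128, 0.235 and 0.104) and without any of 4 single arrays (cow 1 at day 10, cow 1 at day 100, cow 3 at day 30 or cow 4 at day 50), where it was 0.104, 0.0648, 0.0505 and 0.052. A second RRM1 probe, which overlaps the first by 32 bases, read -4.54 in cow 3 at day 10 where its other 3 day 10 values were 2.36, 2.61 and 2.53. On that probe the difference was 3.23 ± 1.29 (SE) and did not pass (adjusted p = 0.148, limma).

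RRM2, the small subunit of the same enzyme, did not follow it. It was at -2.34, -2.74, -1.39 and -1.55 at day 10, -2.83, -1.43, 0.06 and -5.00 at day 30, -4.66, -4.05, -3.49 and -0.12 at day 50, and -3.38, -5.50, -4.59 and -4.23 at day 100. Its day 100 values lay below all of day 10, yet the spread was wide and the difference of -2.42 ± 1.10 (SE) did not pass (adjusted p = 0.191, limma). Its 2 highest arrays were those of the mitotic group, and it was described in full after its values were seen.

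CCNE1, the S phase cyclin E1, was at -2.86, -1.78, -2.19 and -2.82 at day 10 and at -3.56, -2.36, -2.09 and -2.96 at day 30. It was at -4.27, -4.63, -3.73 and -2.68 at day 50 and at -4.77, -4.41, -3.71 and -4.25 at day 100. Day 100 lay below both day 10 and day 30 in all cows without overlap, and cow 4 at day 50 stood apart from the other day 50 values. It fell by 1.88 ± 0.39 (SE) on the log2 scale from day 10 to day 100 (adjusted p = 0.0262, limma, 4 of 4 cows). Without cow 1, 2, 3 or 4 the limma adjusted p was 0.124, 0.052, 0.148 and 0.0506, without cow 1 at day 10 it was 0.0826, and with normexp correction the value was -0.62 (adjusted p = 0.188). The dimmer CCNE1 probe, the one printed above, was well above background on 5 of 16 arrays and gave -1.04 ± 0.31 (SE, adjusted p = 0.069, limma). CCNE2, the gene of cyclin E2, differed by -0.08 with a 95% interval from -1.06 to 0.90.

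None of the loading and clamp genes of replication passed the test. PCNA, the sliding clamp that holds DNA polymerases, was at 2.66, 2.68, 2.48 and 2.30 at day 10, 2.77, 3.55, 3.26 and 3.26 at day 30, 2.67, 2.86, 2.62 and 2.82 at day 50, and 2.44, 3.14, 3.21 and 2.52 at day 100. All day 30 values lay above all day 10 values, by 0.68 ± 0.21 (SE), which did not pass (adjusted p = 0.184, limma). Only PCNA and RRM1 of the 42 members had day 30 above day 10 without overlap, where 3.6% of all tested probes did.

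MCM7, a subunit of the MCM helicase, was at 2.98, 3.75, 3.45 and 2.66 at day 10, 3.27, 3.19, 3.34 and 4.14 at day 30, 2.79, 3.37, 2.70 and 2.80 at day 50, and 2.72, 3.42, 3.21 and 3.13 at day 100. MCM4 was at 1.06, 0.99, 1.62 and 1.00 at day 10, 1.31, 1.68, 2.65 and 1.96 at day 30, 1.11, 1.56, 1.60 and 2.03 at day 50, and 1.34, 1.32, 2.07 and 1.38 at day 100. MCM7 overlapped at all times, whereas MCM4 was higher in 4 of 4 cows at day 30 than at day 10 (0.73 ± 0.23 SE, adjusted p = 0.19, limma). On their representative probes the MCM members differed between day 100 and day 10 by values from -0.61 for MCM3 to 0.36 for MCM4, with MCM5 at -0.07, MCM6 at -0.45 and MCM7 at -0.09, and none passed. Probes of MCM3, MCM4 and MCM7 disagreed: over 4 MCM3 probes this difference ran from -1.67 to 0.59 and over 5 MCM4 probes from -0.84, on the probe printed above, to 0.36. The other MCM7 probe gave -1.07 ± 0.29 (SE, adjusted p = 0.0576, limma, lower in 4 of 4 cows) and correlated with the first at r = 0.375. One MCM3 probe lies on chromosome 9 in the files while the others lie on chromosome 23.

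MCM6 was higher at day 30 than at day 10 in 4 of 4 cows (0.53 ± 0.26 SE) and lower at day 100 than at day 30 in 4 of 4 cows (-0.98 ± 0.26 SE), and neither passed (adjusted p = 0.392 and 0.263, limma). CDC45, which activates the helicase, differed by 0.10 from day 10 to day 100 with a 95% interval from -0.60 to 0.79 (its second probe by -0.44 ± 0.39 SE), and FEN1, which trims Okazaki fragments, by -0.02 with an interval from -0.52 to 0.48. CDC6, which loads the helicase at origins, was at least 1.15-fold lower at day 100 than at day 10, with 2 of 4 day 10 arrays well above background and measured means of -8.28 and -6.56.

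The thymidine genes were higher after day 10 in most cows without passing. TYMS, thymidylate synthase, was at 1.67, 3.30, 2.85 and 1.54 at day 10, 2.93, 3.05, 3.61 and 4.15 at day 30, 3.29, 2.93, 3.65 and 2.74 at day 50, and 1.93, 2.81, 3.89 and 3.25 at day 100. TK1, thymidine kinase, was at 2.71, 1.67, 1.61 and 2.12 at day 10, 2.43, 2.14, 2.65 and 2.48 at day 30, 3.06, 2.43, 2.97 and 2.80 at day 50, and 3.08, 1.86, 1.81 and 3.10 at day 100. Cows 1 and 4 were low for TYMS at day 10 and cows 2 and 3 were low for TK1 there. The largest differences were 1.10 ± 0.42 (SE) for TYMS at day 30 and 0.79 ± 0.27 (SE) for TK1 at day 50, the latter in 4 of 4 cows (adjusted p = 0.283 and 0.153, limma). At day 100 the probes of TK1 differed in sign, 0.43 ± 0.27 on this one and -0.27 ± 0.52 (SE) on the other. CHEK1, a checkpoint kinase active when forks stall, was higher in 4 of 4 cows at day 30 (0.85 ± 0.42 SE, adjusted p = 0.39, limma).

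**Figure D3:**
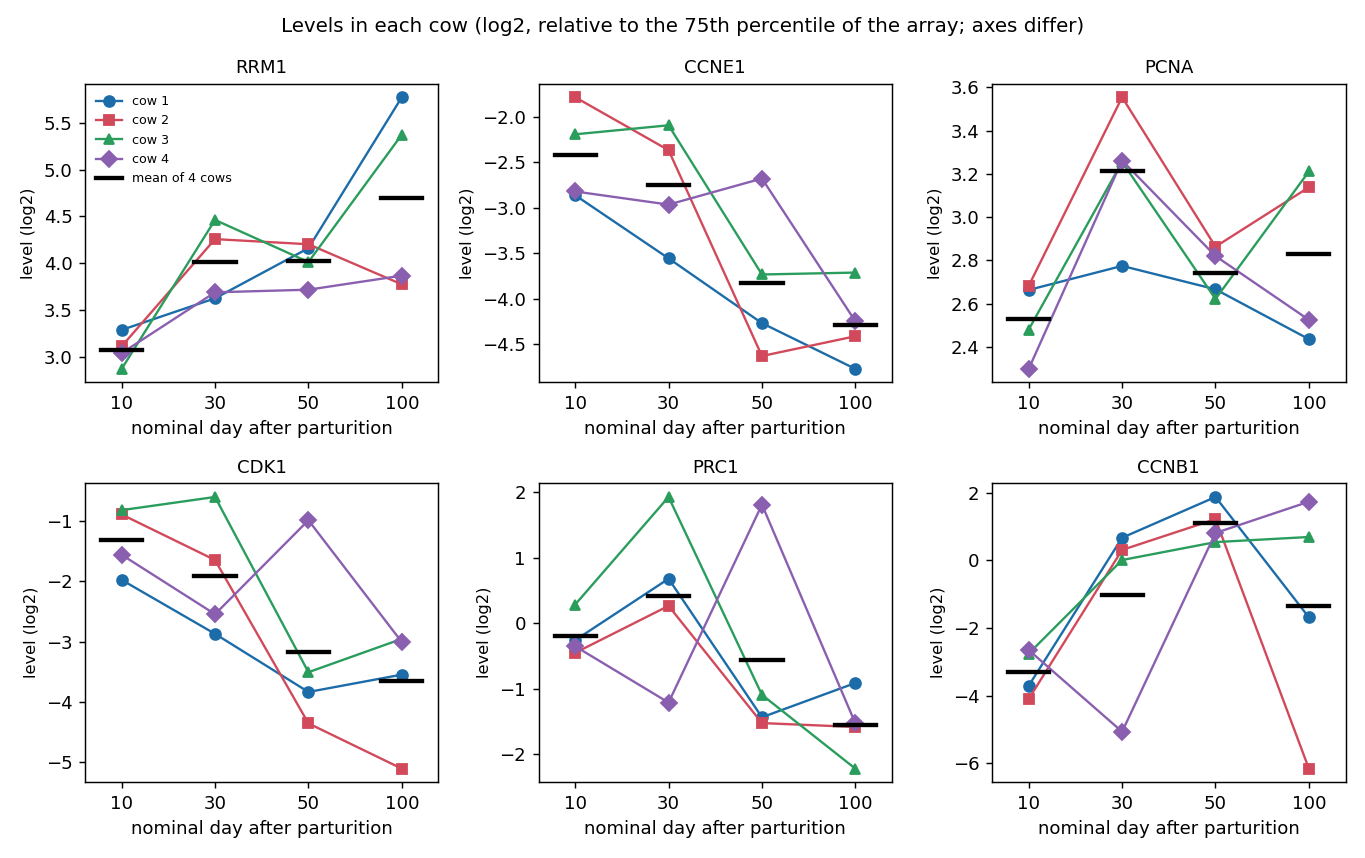
Level (y axis, log2 relative to the 75th percentile of the array, axes differ) of 6 genes against nominal day after parturition (x axis), with 1 line per cow and black bars for the mean of 4 cows. RRM1 was above its day 10 values at every later time, CCNE1 and CDK1 were lowest at days 50 and 100 apart from cow 4 at day 50, PRC1 peaked at 1.93 in cow 3 at day 30 and 1.81 in cow 4 at day 50, and CCNB1 was lowest, at -5.07 and -6.16, in cow 4 at day 30 and cow 2 at day 100.

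Among the mitotic kinases, CDK1, the kinase that starts mitosis, was at -1.97, -0.89, -0.82 and -1.56 at day 10 and at -2.87, -1.64, -0.60 and -2.54 at day 30. It was at -3.83, -4.36, -3.51 and -0.98 at day 50 and at -3.55, -5.11, -2.95 and -3.01 at day 100. Day 100 lay below all of day 10 and day 30, and only cow 4 kept a day 50 value within the day 10 range. The day 100 difference from day 10 was -2.34 ± 0.66 (SE, adjusted p = 0.0642, limma), or -3.80 to -0.89 as a 95% interval. Without the day 50 array of cow 4 the limma adjusted p of CDK1 was 0.033 and that of TTK, a spindle checkpoint kinase, was 0.0469. That array was chosen after seeing the data and belongs to neither day 10 nor day 100, so leaving it out changes mainly the estimated spread. TTK was not well above background on any day 100 array, so its value there rests on dim signal.

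AURKB, the kinase of the chromosomal passenger complex, was at -2.37, -1.53, -1.64 and -2.28 at day 10, -2.17, -1.31, -0.25 and -4.01 at day 30, -4.01, -4.51, -3.64 and -1.05 at day 50, and -3.38, -4.27, -4.41 and -3.92 at day 100. Day 100 did not overlap day 10, with a difference of -2.04 ± 0.84 (SE, adjusted p = 0.156, limma). AURKA, the centrosome kinase, and BIRC5, the survivin subunit of the same passenger complex, also lay lower at day 100 without overlap (-0.89 ± 0.54 and -1.60 ± 0.86 SE). PLK1, the Polo kinase, was at 0.52, 0.86, 1.13 and 0.77 at day 10, 1.24, 0.95, 1.73 and 0.88 at day 30, 0.96, 1.07, 0.97 and 1.64 at day 50, and 1.44, 1.40, 1.00 and 1.04 at day 100. PLK1 spanned 1.21 in all, the least of the mitotic genes, and was not lower at day 100 (0.40, 95% interval from -0.17 to 0.97).

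The spindle genes followed the single-biopsy peaks. PRC1, which bundles midzone microtubules, was at -0.26, -0.45, 0.29 and -0.35 at day 10, 0.68, 0.27, 1.93 and -1.21 at day 30, -1.43, -1.52, -1.09 and 1.81 at day 50, and -0.91, -1.58, -2.22 and -1.53 at day 100. NUSAP1, which attaches microtubules to chromosomes, was at -0.81, -0.56, 0.50 and -0.46 at day 10, 0.47, 1.09, 2.33 and -2.61 at day 30, -1.40, -2.05, -1.09 and 1.28 at day 50, and -0.46, -2.30, -0.96 and -2.36 at day 100. For both, cow 3 at day 30 was the highest array and cow 4 at day 50 the next. TPX2, which activates AURKA on the spindle, was at -0.89, -1.18, -0.23 and -0.31 at day 10, -1.29, -0.22, 1.19 and -2.01 at day 30, -1.44, -2.42, -1.02 and 0.57 at day 50, and -1.97, -2.31, -1.27 and -1.39 at day 100. KIF2C, a kinesin that removes tubulin from microtubule ends, was at -2.16, -2.32, -1.53 and -2.26 at day 10, -2.30, -2.21, -0.33 and -2.91 at day 30, -3.45, -3.76, -3.00 and -0.96 at day 50, and -2.94, -1.85, -3.14 and -3.11 at day 100. PRC1 and TPX2 did not overlap between day 10 and day 100, and NUSAP1 and KIF2C did.

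The genes of mitotic exit followed the same 2 biopsies. CDC20, the activator of the anaphase-promoting complex, was at -4.32, -3.92, -2.46 and -3.55 at day 10, -3.45, -2.84, -0.64 and -6.75 at day 30, -6.06, -6.73, -5.62 and -1.60 at day 50, and -4.90, -7.46, -7.32 and -6.30 at day 100. Its difference from day 10 to day 100 was -2.93 ± 1.31 (SE, adjusted p = 0.186, limma), with 2 of 4 day 100 arrays well above background. The other tested CDC20 probe, 1 of the overlapping lines printed above, gave -1.42 and correlated with the first at r = 0.902. UBE2C was at -3.19, -3.09, -1.75 and -2.25 at day 10, -2.37, -1.66, -0.14 and -5.36 at day 30, -5.01, -5.58, -4.33 and -0.56 at day 50, and -4.38, -5.52, -5.10 and -4.96 at day 100. The difference was -2.42 ± 1.14 (SE, adjusted p = 0.207, limma), and both genes were non-overlapping with day 100 lower. These 2 genes were described in full after their values were seen.

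The remaining mitotic genes are given by their differences from day 10 to day 100. TTK was at least 3.86-fold lower, CENPF, a kinetochore protein, at least 2.56-fold, and KIF11, the kinesin that pushes spindle poles apart, at least 2.4-fold, each with 3 of 4 day 10 arrays and no day 100 array well above background and with adjusted p of 0.186, 0.231 and 0.161 (limma). A bound sets the mean of the brighter time against, on each dim array, the higher of the probe's own level and the lowest level of any probe well above background there. The B-type cyclin CCNB2, the kinesin KIF20A of cytokinesis and the kinetochore kinesin CENPE differed by -2.17, -2.54 and -2.17, all without overlap. The checkpoint kinase BUB1 lay lower without overlap (-1.17 ± 0.54 SE), whereas BUB1B and CCNA2, the cyclin A2 gene, overlapped at -1.23 and -1.37. KIF23, a kinesin of the midbody, overlapped at -0.89 and was highest in cow 4 at day 30, at -0.76. Where a mitotic gene had several tested probes, their differences had the same sign but not the same size. They ran from -1.17 to -0.45 over 3 BUB1 probes and from -2.46 to -1.19 over 3 AURKB probes.

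CCNB1, the cyclin B1 gene, had a pattern of its own. It was at -3.71, -4.10, -2.76 and -2.65 at day 10 and at 0.67, 0.31, 0.01 and -5.07 at day 30. It was at 1.87, 1.22, 0.54 and 0.81 at day 50 and at -1.69, -6.16, 0.69 and 1.73 at day 100. All day 50 values lay above all day 10 values, and the low values later on were cow 4 at day 30 and cow 2 at day 100. The range over the 16 arrays was 8.03, the widest of the 42 members. Its low end, in cow 2 at day 100, lay just below the lowest level well above background there (-6.11). The difference at day 50 was 4.41 ± 1.55 (SE, 95% interval from 1.02 to 7.81) and did not pass (adjusted p = 0.162, limma). With the day 10 and day 50 arrays alone it did (adjusted p = 0.0296, limma). Both CCNB1 probes, which share the bases ggaatactacctgcaaataaaa, correlated at r = 0.996 over the 16 arrays. The epithelial markers stood lowest on cow 2 at day 100 (-3.87), cow 2 at day 10 (-2.76) and cow 4 at day 30 (-2.19). CCNB1 correlated with that list level at r = 0.64 over 16 arrays that share cows and times. Over the 42 members r ran from -0.78 for MCM7 to 0.64 for TK1. Over the other mitotic genes it ran from -0.19 for KIF2C to 0.24 for NUSAP1. In cows 1 and 4 at day 10 the epithelial level was 1.01 and 0.99, where CCNB1 was at -3.71 and -2.65. The part of epithelial content in the CCNB1 values was not tested.

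**Figure D4:**
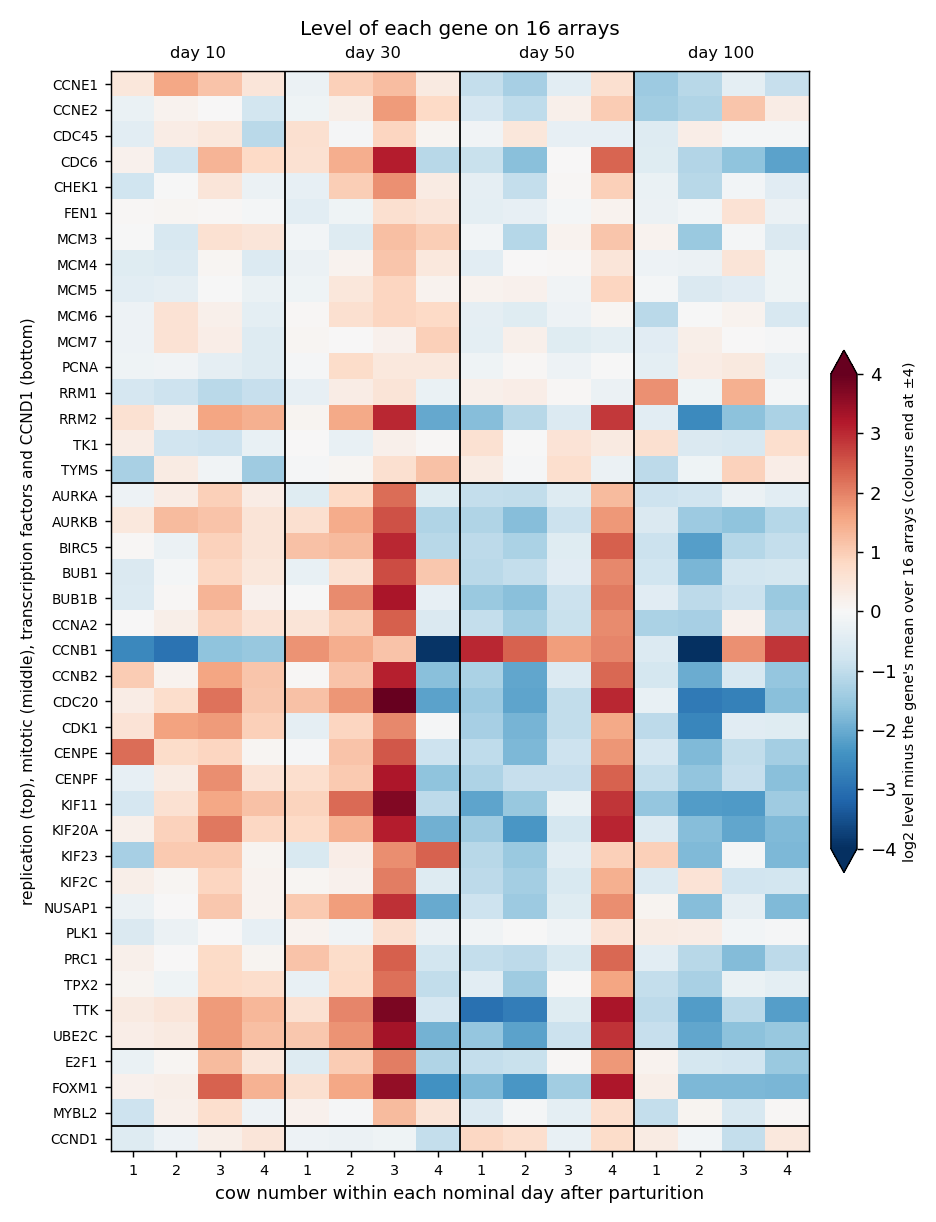
Level of each of the 42 genes (rows) on the 16 arrays (columns, cows 1 to 4 within each day), as log2 minus the gene's mean over the arrays, with red above and blue below the mean and colours ending at 4 in either direction. The columns of cow 3 at day 30 and cow 4 at day 50 are red through most mitotic rows, CCNB1 stands apart, and most replication rows are pale.

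The 3 transcription factors were also highest on those 2 biopsies. FOXM1, the factor of the mitotic genes, was at -6.01, -5.95, -3.83 and -4.77 at day 10, -5.52, -4.62, -2.67 and -8.58 at day 30, -7.93, -8.51, -7.56 and -2.95 at day 50, and -5.93, -7.99, -7.96 and -8.01 at day 100. It was well above background on 3, 2, 1 and 1 of 4 arrays at the 4 times, so its low values have no order. E2F1 was at -5.41, -5.06, -3.88 and -4.67 at day 10, -5.66, -4.13, -3.11 and -6.33 at day 30, -6.10, -6.03, -5.11 and -3.42 at day 50, and -5.01, -5.84, -5.91 and -6.61 at day 100. Its second probe correlated with it at only r = 0.152. MYBL2 was at -0.98, 0.06, 0.51 and -0.36 at day 10, 0.00, -0.21, 1.11 and 0.37 at day 30, -0.70, -0.24, -0.54 and 0.52 at day 50, and -1.12, -0.05, -0.81 and -0.10 at day 100. All 3 overlapped between times, and none passed.

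CCND1, cyclin D1, which links growth signals to G1, was at 0.41, 0.72, 1.17 and 1.40 at day 10, 0.71, 0.69, 0.74 and -0.04 at day 30, 1.75, 1.59, 0.63 and 1.65 at day 50, and 1.25, 0.80, -0.03 and 1.34 at day 100. The times overlapped, and the widest difference, day 50 above day 30 by 0.88 ± 0.36 (SE), did not pass (adjusted p = 0.52, limma).

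The likeness of each gene to the mean of the other mitotic genes over the 16 arrays describes how closely they moved together. Among the mitotic genes, 19 of 22 had a Pearson r over 0.8, with a median of 0.944, and cow 3 at day 30 was the highest array for 20 of the 22. For 18 of 22 the 2 highest arrays were cow 3 at day 30 and cow 4 at day 50. Without those 2 arrays, the farthest from the median of the mitotic level, the median r was 0.889. The exceptions were CCNB1 (0.06), PLK1 (0.39) and KIF23 (0.54). Among the replication genes 3 of 16 exceeded 0.8, RRM2 (0.96), CDC6 (0.94) and CHEK1 (0.84), with CCNE1 at 0.77, and the median was 0.48, or 0.09 without the 2 arrays. TYMS, TK1, MCM7 and RRM1 lay between -0.20 and -0.08. FOXM1 and E2F1 were at 0.96 and 0.91, MYBL2 at 0.60 and CCND1 at 0.08. These are descriptions over arrays that share cows and slides, and genes with a small range have less room to correlate. The median range was 4.71 over the mitotic and 2.28 over the replication genes. CDC6, FOXM1, KIF11, CENPF and TTK were well above background on 6, 7, 7, 8 and 9 of 16 arrays. Many of the values behind their r are therefore dim.

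**Figure D5:**
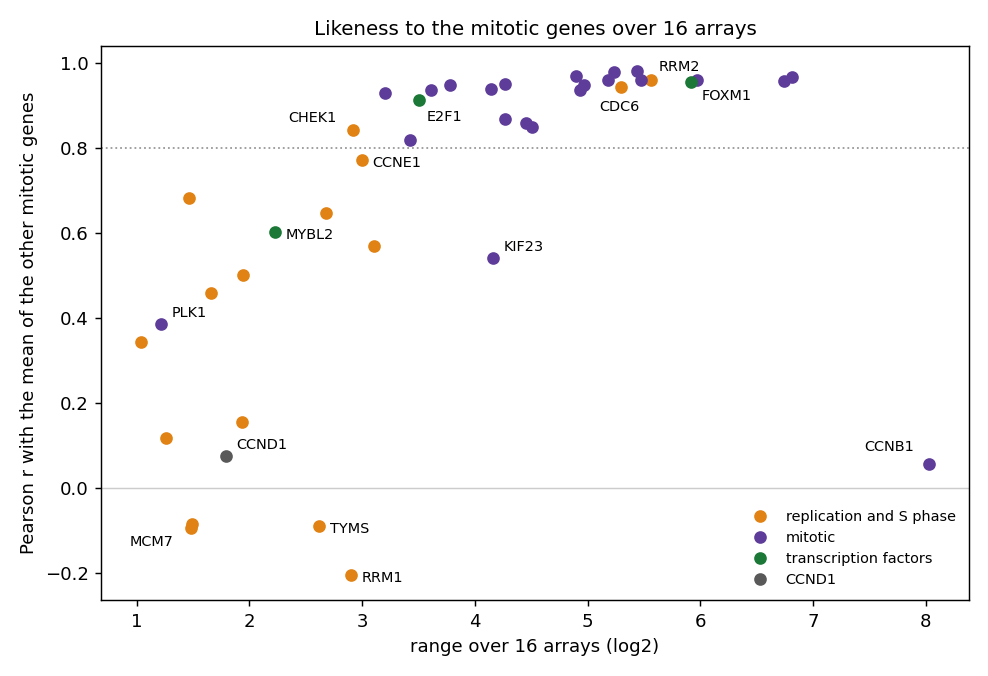
Pearson correlation of each gene with the mean of the other mitotic genes over 16 arrays (y axis) against its range over the arrays in log2 (x axis), coloured by group, with a dotted line at 0.8. The mitotic genes cluster at the top with RRM2, CDC6, FOXM1 and E2F1, CCNB1 combines the widest range (8.03) with r of 0.06, and RRM1 is lowest at -0.20.

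Other genes of the same pathway were taken from further lists. These lists, too, were chosen with results of these data known. Of 38 other replication genes, 2 rose at day 50 and 3 at day 100 against day 10, and none fell, where 0.594% and 1.45% of all tested probes rose and 1.06% and 3.15% fell. GINS3, a subunit of the GINS complex of the helicase, was at -2.51, -1.85, -1.75 and -2.40 at day 10, -1.48, -1.60, -1.25 and -1.51 at day 30, -1.25, -0.97, -0.87 and -1.35 at day 50, and -0.67, -0.75, -0.49 and -0.72 at day 100. Each later time lay above day 10 without overlap. It rose 2.02-fold by day 50 and 2.77-fold by day 100 (log2 1.02 and 1.47, both ± 0.18 SE, adjusted p = 0.0256 and 0.00388, limma, 4 of 4 cows). POLE2, a subunit of DNA polymerase epsilon, was at -3.84, -3.46, -2.84 and -3.13 at day 10, -3.12, -2.23, -1.49 and -2.64 at day 30, -1.94, -2.77, -1.20 and -1.50 at day 50, and -1.77, -2.47, -1.39 and -1.91 at day 100. It rose by 1.46 and 1.43 (both ± 0.29 SE, adjusted p = 0.0361 and 0.0244, limma) at days 50 and 100. The day 50 call was lost with cow as a random effect (limma adjusted p = 0.0512), and both were lost without the cow term (0.087 and 0.057).

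PRIM1, the catalytic subunit of primase, was at -4.06, -3.39, -3.19 and -3.50 at day 10, -2.68, -2.92, -2.00 and -1.39 at day 30, -2.58, -2.63, -2.25 and -2.62 at day 50, and -2.23, -2.60, -1.74 and -2.40 at day 100. It rose by 1.29 ± 0.28 (SE, adjusted p = 0.0287, limma) at day 100, without overlap. Among 10 cell cycle regulators LIN54, a DNA-binding subunit of the DREAM complex that represses or activates cell cycle genes, rose by 0.93 ± 0.24 (SE, adjusted p = 0.0487, limma) at day 100, from -4.19, -3.57, -3.27 and -3.69 to -2.50, -2.93, -2.73 and -2.87. Each of these calls was lost when some cow was left out. Without cow 1 the limma adjusted p at day 100 was 0.056 for GINS3, 0.112 for POLE2, 0.142 for PRIM1 and 0.192 for LIN54, and without cow 3 it was 0.0526, 0.158, 0.191 and 0.177. Without cow 4 it was 0.0927 for POLE2, 0.0628 for PRIM1 and 0.124 for LIN54, and without cow 2 it was 0.088 for LIN54. Without the day 10 array of cow 1 it was 0.0829 for POLE2, 0.0952 for PRIM1 and 0.14 for LIN54, and without the day 100 array of cow 1 it was 0.0558 for PRIM1 and 0.0799 for LIN54. LIN54 was also lost without cow 3 at day 30 (0.0622) or cow 4 at day 50 (0.0624). The day 50 calls of GINS3 and POLE2 were lost without any 1 of the 4 cows, without cow 1 at day 10 and without cow 4 at day 50, and that of POLE2 also without cow 3 at day 30 (limma adjusted p from 0.0501 to 0.214).

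Of 58 other mitosis genes, 0 passed in any difference. Between day 10 and day 100, 25 of them were lower in 4 of 4 cows, against 16% of all tested probes, and the median difference was -0.54. At an unadjusted p under 0.05, 2 were higher and 6 lower, where 10.9% and 14.9% of all tested probes were. At day 100 against day 30, 20 of 58 were lower at an unadjusted p under 0.05, against 7.29% of all tested probes, and the median was -0.90. Of 15 cell cycle inhibitors and RB family genes, which hold cells in G1 or out of the cycle, 0 passed in any difference and the median from day 10 to day 100 was 0.12, with 2 lower at an unadjusted p under 0.05, near the 14.9% of all tested probes.

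Macrophage markers were also lower at day 100 than at day 10. All 13 macrophage markers fell from day 10 to day 100, where 3.15% of all tested probes fell. Their list level ran from 0.78 to 2.48 at day 10 and from -1.24 to 0.00 at day 100. Of the 13, 12 were well above background on all arrays. All 7 neutrophil markers lay lower at day 100, with a median of -2.54, and none passed. Of 14 T and NK cell markers 1 rose and 2 fell, with a median of -0.22, and of 7 B and plasma cell markers none passed, with a median of 0.04. The macrophage markers were already low at day 30: 13 of 13 lay below day 10, with a median of -2.17. Of these, 6 fell, where 0.407% of all tested probes did. From day 30 to day 100 the macrophage median was 0.05. The mitotic median was 0.30 and -1.93 in these 2 comparisons. The macrophage list level was 0.31 in cow 3 at day 30 and 0.91 in cow 4 at day 50, the highest at each of these times. The other cows lay from -1.25 to -0.63 and from -1.45 to 0.13. The level of 10 ciliated epithelium markers was 1.75 in cow 3 at day 30, its highest of the 16 arrays, and 1.23 in cow 4 at day 50. The ciliated level was also 1.70 in cow 1 at day 100, 1.67 in cow 1 at day 50 and 1.47 in cow 3 at day 100. On those arrays the mitotic level was -0.62, -1.03 and -0.85. Only 1 of the 10 ciliated markers was well above background on all arrays. The part of macrophage or ciliated cell content in the cell cycle differences was not tested.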

How the data were processed

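Per the file headers, 1-colour (Cy3) Agilent arrays were read with Feature Extraction 11.5.1.1, whereas the submitters' processing notes name 10.5.1.1. The deposited intensity values used are the processed signals, background-subtracted and detrended within each array per the file headers. The authors' deposited value table holds log2 values of the same arrays, with medians from -0.16 to 0.22, and was used as an alternative; its scaling is not stated. Array precision is limited by how many arrays there are.

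Each array's 75th percentile over non-control spots was subtracted on the log2 scale, nonuniform spots were left out and spots of a probe averaged. Of all probes, those that at least 4 of 16 arrays marked well above background were tested with limma 3.58.1 (R 4.3.3) (model terms time and cow, two-sided tests, Benjamini-Hochberg adjustment over 33174 probes). Residual degrees of freedom were 9, and the median SE of a day 100 difference from day 10 was 0.36. Each cow was 1 slide and 1 scan, so the cow term also takes up both. The labels say that the biopsies come from the same individuals, and deviations from the time means correlated at a median r of 0.125 over 24 same-cow pairs against -0.0397 over 72 pairs of different cows.

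The members and lists were chosen with earlier results of these data known. Values on all arrays were given for members past the threshold, the 6 replication and 8 mitotic members of highest mean level, the transcription factors, CCND1 and called genes of the other lists; exceptions are named. Gene names are those of the files; for 71 of 94 member probes the accession gave the same symbol in RefSeq, and for 0 another. The fitting steps were tested on simulated data. Alternatives were other background correction, normalization, filters, blocks and probe rules, the authors' own values, and leaving out cows or arrays. Promoter motifs were not analysed here.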

Additional observations from a re-analysis of the deposited data

Results flagged for a closer look

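Within a time, 1 biopsy stood far from the other 3 in 16 of 176 groups of 4 values (the 42 genes and 2 group levels at 4 times), in 11 genes, 12 times as the highest and 4 times as the lowest. Chance gives about 1 in 20 such groups, and genes on the same array are not independent.

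Cow 4 at day 50 was the highest for CCNA2 (-1.81, next -4.59), CENPF (-3.63, next -6.90), PRC1 (1.81, next -1.09), PLK1 (1.64, next 1.07) and FOXM1 (-2.95, next -7.56). Cow 4 at day 30 was the lowest for CCNB1 (-5.07, next 0.01) and CCND1 (-0.040, next 0.69) and the highest for MCM7 (4.14, next 3.34). Cow 3 was the highest for MCM4 at day 10 (1.62, next 1.06) and day 100 (2.07, next 1.38) and for CCNA2 at day 100 (-3.53, next -4.99), and the lowest for CCND1 at day 50 (0.63, next 1.59). Cow 2 was the lowest for BUB1 at day 100 (-6.03, next -4.98) and the highest for KIF2C at day 100 (-1.85, next -2.94) and MCM7 at day 50 (3.37, next 2.80). Cow 1 was the highest for FOXM1 at day 100 (-5.93, next -7.96).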

How the results depend on the processing

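The 2 calls at day 100 against day 10 were the only ones among the members with the settings reported, and 10 of 18 alternatives gave fewer there. At day 100 against day 10, 1 member was called with normexp, 1 with the mean of all tested probes of a gene and 0 with only the arrays of the 2 times. With only those arrays 1 member, CCNB1, was called at day 50 against day 10. Leaving out a cow or an array gave 0 to 3 calls at day 100, 0 to 1 at day 50 and 0 to 1 by the F test. The 3 calls came without cow 4 at day 50, an array chosen, like cow 3 at day 30, after seeing the data. With no replicate block 2 members were called at day 100 against day 10 and 0 elsewhere, and among named genes it changed the calls of POLE2 alone (limma adjusted p 0.087 at day 50 and 0.057 at day 100). CCNE1 ranged from -2.02 to -0.62 and lost its call in 7 of 18 alternatives, and RRM1 from 1.25 to 2.42 and in 9. The mitotic median at day 100 against day 10 moved to -0.28 with normexp correction. Over leave-outs the mitotic median changed sign at day 30 against day 10 (-0.24 to 0.92, from 0.30) and at day 100 against day 50 (-1.26 to 0.30, from -0.77), where normexp gave 0.04, and at day 50 against day 10 it went from -0.76 to -1.77 without cow 4 at day 50. The replication median, -0.08 at day 100 and 0.08 at day 50 against day 10, also changed sign under some of them. Genes near background (CDC6, KIF11, CENPF, TTK and FOXM1) are limited by signal.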

Other observations

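GINS2 and MCM2, without a probe of that gene name, had probes identified by accession and by the file's description, a choice made after seeing the files. On 1 tested MCM2 probe the levels were -1.26, -0.42, -0.34 and -2.51 in cows 1 to 4 at day 10 and -0.76, -0.68, -2.21 and -1.16 at day 100, a difference of -0.07. The other tested MCM2 probe gave -1.37 ± 0.56 (SE, adjusted p = 0.156, limma), lower in 4 of 4 cows. GINS2 was at -3.71, -3.29, -2.69 and -2.63 at day 10 and -3.23, -4.04, -3.70 and -3.81 at day 100 on the brighter of its 2 probes (-0.62 ± 0.59 SE), and the other gave -1.30 ± 0.65 (SE), lower in 4 of 4 cows. Neither gene was called in any difference (limma).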
